A study of Homo sapiens with 8 samples.

Results

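The genes described here encode oxygen sensors that control hypoxia-inducible factor (HIF), and further proteins that act on HIF or on those sensors. They are the prolyl hydroxylases EGLN1, EGLN2 and EGLN3, the asparaginyl hydroxylase HIF1AN, the ubiquitin ligase subunit VHL, the ubiquitin ligase SIAH2 and the transcriptional inhibitor CITED2. These 7 genes of 20163 protein-coding genes in the annotation were chosen by name, and every HIF-1β peak that overlapped the gene body extended by 25 kb on both sides was taken. HIF-1β, the shared DNA-binding partner of the HIF-α subunits, was mapped by chromatin immunoprecipitation and sequencing (ChIP-seq) in PC3 (prostate cancer), T47D (oestrogen receptor positive breast cancer), A549 (lung cancer) and HCT-116 (colorectal carcinoma) cells. All 8 libraries, 2 per line, came from cells held at 0.5% oxygen for 16 h, and no normoxic or control library was analysed here, so the values describe hypoxic cells only. Each group is 1 established cell line, and nothing in the labels said that its replicates were separate cultures, so the spread between them may be technical.

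When oxygen is present, prolyl hydroxylases modify HIF-α, which is then bound by VHL and degraded, and HIF1AN modifies a different residue of HIF-α that blocks its contact with coactivators. CITED2 competes with HIF-α for the same coactivators, and SIAH2 promotes degradation of prolyl hydroxylases. Several of these genes are themselves known to be induced by HIF in hypoxia, which forms feedback on the pathway.

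The lists held between 1042 peaks (PC3 replicate 1) and 3790 peaks (HCT-116 replicate 2), with a score for each peak whose scale is not stated. Since the lists differed in length and held no reads, the depth is unknown and each peak is given with its rank, the percentage of peaks in the same library that scored higher, so that 0% is the top. A region where peaks of both replicates of a line overlapped by at least 1 bp is called a site. The 56 peaks of the 7 genes fell in 14 regions, of which 9 were a site in at least 1 line and 4 had a peak in a single library. EGLN3 held 9 of the 14 regions, VHL held none and the other 5 genes held 1 each.

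A site lay within 25 kb of EGLN1 and EGLN3 in all 4 lines, and 2.46% of all protein-coding genes had one in all 4. SIAH2 had a site in PC3, T47D and HCT-116 cells, CITED2 in T47D, A549 and HCT-116 cells, and HIF1AN in HCT-116 cells. EGLN2 and VHL had no site in any of the 4 lines. PC3 cells had a site at 3 of the 7 genes, against 7.07% of all protein-coding genes, and T47D cells had one at 4 of 7, against 16.0%. A549 cells had one at 3 of 7, against 6.01% of all genes, and HCT-116 cells at 5 of 7, against 14.2%. In PC3 cells the count depended on the shorter list of replicate 1, since 5 of 7 genes had a peak in replicate 2 alone, the added genes being HIF1AN and CITED2. By that looser definition 17.2% of all protein-coding genes had a peak. The counts of the other lines also rose with a peak of either replicate, as given in the closing section. The 7 genes were chosen with results of these data known, and EGLN3 has a far longer gene body than the others, so the counts are given beside those of all genes without a test.

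Within 2 kb of the start of the canonical transcript, EGLN1 and SIAH2 had a site in PC3 cells, where 1.97% of all protein-coding genes did. EGLN1, CITED2 and SIAH2 had one in T47D cells against 6.65% of all genes, and the same 3 genes had one in HCT-116 cells against 5.75%. In A549 cells the genes were EGLN1 and CITED2, against 1.46% of all genes. EGLN3 was bound in each line but had no site within 2 kb of its canonical start in any of them.

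**Figure D1:**
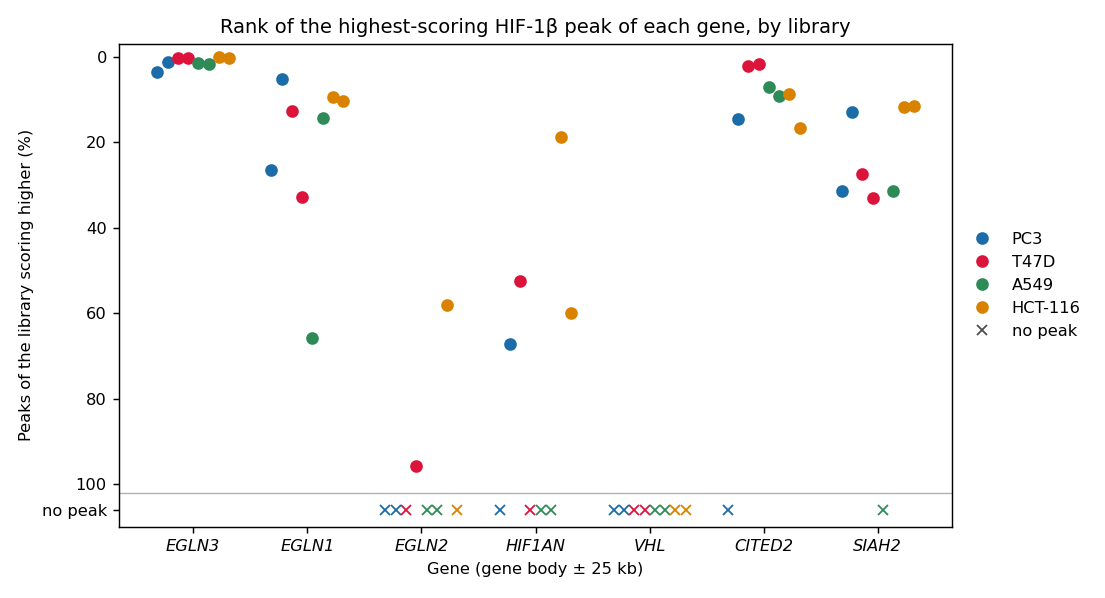
Rank of the highest-scoring HIF-1β peak within 25 kb of each gene (vertical axis, percentage of the library's peaks that scored higher, 0 at the top) in each of the 8 libraries, coloured by cell line, with crosses for libraries without a peak. EGLN3 lies between 0% and 3.45% in every library, EGLN1 ranges from 5.12% to 65.8%, and VHL has no peak in any of the 8.

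EGLN1 (also known as PHD2) encodes the prolyl hydroxylase that carries most of the HIF-α hydroxylating activity in normoxic cells. Its single region, chr1:231556405-231558938 (GRCh37), had a peak in all 8 libraries and covered exon 1 and the start of the gene, which lies on the minus strand at position 231558033. The median midpoint of the peaks lay 59 bp downstream of the start, and the midpoints of the libraries spanned 367 bp. The sequence just upstream of the start is shown because it holds the motif match closest to it. It is chr1:231558034-231558144, minus strand, with the HIF core motif (ACGTG or GCGTG on either strand, which reads CACGT or CACGC in reverse) in capitals.
EGLN1 promoter: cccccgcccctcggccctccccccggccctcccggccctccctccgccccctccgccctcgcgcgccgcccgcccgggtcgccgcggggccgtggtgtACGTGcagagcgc

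The middle base of this match lies 11 bp upstream of the canonical start. The region, merged over the 8 libraries, held 5 matches in all, or 1.97 per kb. The median was 2.61 to 3.76 per kb over all sites of the 4 lines. Those sites were merged only from the replicates of a line, so the densities are not directly comparable. The nearest match lay 70 bp from the median midpoint of the peaks. Matches were present in 96.3% to 99.0% of all sites of the 4 lines, so holding one did not set the EGLN1 region apart.

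The EGLN1 peak scored 153.05 and 544.91 in PC3 replicates 1 and 2, which 26.6% and 5.12% of the peaks of those libraries exceeded. In T47D cells it scored 224.10 and 125.55 in replicates 1 and 2, with 12.7% and 32.7% of peaks higher. In A549 cells it scored 71.56 in replicate 2 and 278.55 in replicate 3, with 65.8% and 14.3% of peaks higher. HCT-116 cells gave the closest pair, 385.83 in replicate 2 and 343.91 in replicate 3, with 9.39% and 10.4% of peaks higher. The ranges of the 4 lines overlapped, except that both HCT-116 libraries ranked it higher than any T47D or A549 library did. The A549 replicates stood 51.4 percentage points apart in rank, a distance that 39 of the 1041 A549 sites (3.75%) matched or exceeded. Replicates of a line were not closer in rank than libraries paired across lines (exact permutation test over the 105 possible pairings of the 8 libraries, one-sided, p = 0.6, smallest possible 0.0095).

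EGLN3 (also known as PHD3) encodes a prolyl hydroxylase whose transcript is well known to be induced by hypoxia. Its strongest region, chr14:34406785-34408621, lay inside intron 1 of the canonical transcript, with a midpoint 12549 bp downstream of the canonical start at position 34420280 on the minus strand. All 8 libraries had a peak there, with midpoints that spanned 274 bp and an edge between 11659 and 11924 bp from the start. The central sequence, chr14:34407607-34407807, minus strand, is shown because this was the highest-scoring peak of the 7 genes in every library, and its capitals mark the motif as above.
EGLN3 intron 1: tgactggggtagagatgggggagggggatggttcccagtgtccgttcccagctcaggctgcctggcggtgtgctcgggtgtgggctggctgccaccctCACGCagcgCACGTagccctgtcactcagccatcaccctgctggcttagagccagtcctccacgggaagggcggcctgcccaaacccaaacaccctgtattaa

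The 2 matches shown lie 12582 and 12573 bp downstream of the start, and the region held 5 in all (2.72 per kb). Over the 300 bases from 250 before to 50 after the start in the RefSeq promoter table (GRCh38.p14), EGLN3 had no match, as did HIF1AN. EGLN1 and SIAH2 had a match in their 1 promoter each, CITED2 in 3 of 3 and EGLN2 in 1 of 2, and 48.4% of all 35116 promoters in the table held one. The table lists 6 of the 7 genes.

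In PC3 cells the EGLN3 intron peak scored 671.87 in replicate 1 and 1520.33 in replicate 2, with 3.45% and 1.18% of peaks higher. In T47D cells it scored 2125.36 and 2500.75 in replicates 1 and 2, which placed it at 0.359% and 0.309%. In A549 cells the scores were 1483.45 and 1143.17 in replicates 2 and 3, at 1.41% and 1.57%. In HCT-116 cells the peak scored 3100 in replicate 2, the highest value of that list, shared with 12 other peaks, and 2207.00 in replicate 3, where 0.261% of peaks were higher. It was thus among the highest peaks of every library, and the replicates of T47D, A549 and HCT-116 cells each lay close together, while PC3 replicate 1 lay on one side of the A549 pair and replicate 2 on the other. By the same exact permutation test, replicates were closer in rank than libraries paired across lines (p = 0.048, one-sided). Adjusted over the 8764 genes with a peak in their window, the p-value was 0.36 (Benjamini-Hochberg), and 8.82% of those genes had an unadjusted p at or under 0.05, against 1 of the 6 genes with a peak here. The smallest adjusted value of any gene was also 0.36, so that 0 genes passed 0.05 after adjustment. When a library was left out, the other library of its line stood in no pair, so that only the other lines gave the spread. Leaving out either replicate of T47D, A549 or HCT-116 cells took the p-value for EGLN3 to between 0.13 and 0.18, and leaving out either PC3 replicate, or ranking by the number of higher-scoring peaks, took it to 0.0095 (exact permutation tests).

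A further region at EGLN3, chr14:34528700-34530411, also had a peak in all 8 libraries and formed a site in all 4 lines. Its midpoint lay 109274 bp upstream of the canonical start, its near edge lay 194 bp beyond the annotated end of EGLN3-AS1, an antisense transcript, and its libraries' midpoints spanned 210.5 bp. It counts as part of EGLN3 because transcripts outside the canonical one extend the annotated gene body to 538548 bp. Its densest stretch, chr14:34529492-34529692, minus strand, is shown because no other region of the 7 genes held as many matches per kb.
EGLN3 upstream region: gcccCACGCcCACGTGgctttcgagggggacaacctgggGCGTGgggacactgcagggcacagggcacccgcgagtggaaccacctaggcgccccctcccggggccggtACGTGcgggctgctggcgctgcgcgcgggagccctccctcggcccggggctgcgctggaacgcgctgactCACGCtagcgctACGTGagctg

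This stretch of 201 bases holds 7 matches, of which CACGTG counts as 2 because it reads as a match on both strands. The region, merged over the 8 libraries, held 12 matches (7.01 per kb). Medians over all sites, each merged only from the replicates of a line, were 2.61 to 3.76 per kb. The upstream peak scored 290.90 and 539.27 in PC3 replicates 1 and 2, with 11.4% and 5.22% of peaks higher. It scored 301.54 and 462.49 in T47D replicates 1 and 2 (8.4% and 5.91%). The A549 scores were 949.17 and 832.84 in replicates 2 and 3 (2.32% and 2.76%), and the HCT-116 scores were 1309.73 and 1050.12 (1.95% and 2.67%). A549 and HCT-116 cells therefore ranked it higher than PC3 and T47D cells did, with no overlap between those pairs of lines. The intron peak scored higher than the upstream peak in 8 of 8 libraries, by 1.37 to 2.82 times in PC3, A549 and HCT-116 cells and by 7.05 and 5.41 times in T47D replicates 1 and 2. Because the scale of the score is not stated, the ratio orders peaks within a library and is not a ratio of binding.

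Next to it, 1840 bp further upstream, lay a region with peaks in A549 cells only, chr14:34532251-34533584, with a midpoint 112649 bp from the canonical start. It scored 965.34 in A549 replicate 2 and 467.62 in replicate 3, with 2.21% and 6.61% of peaks higher, and no library of the other lines had a peak there. Of 77 A549 sites that ranked at least as high as 6.61% in both replicates, 3 had no peak in any library of the other lines, and this region was 1 of them. The limit of 6.61% was taken from this region itself, so its place among the 3 was fixed in advance. Its sequence around the central match, chr14:34532792-34532992, minus strand, is shown because it is the only strong region of the 7 genes found in a single line.
EGLN3 A549 region: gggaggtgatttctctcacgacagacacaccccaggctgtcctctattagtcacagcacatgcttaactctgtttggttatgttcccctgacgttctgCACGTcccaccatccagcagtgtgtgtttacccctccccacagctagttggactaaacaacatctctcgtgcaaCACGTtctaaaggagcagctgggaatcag

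It held 2 matches, or 1.5 per kb, fewer than the upstream region beside it. Of the remaining EGLN3 regions, 1 lay 84835 bp upstream and was a site in A549 cells alone, with scores of 201.68 and 240.97 in replicates 2 and 3. Single peaks of 52.92 in PC3 replicate 2 and 91.85 in HCT-116 replicate 2 overlapped it. Another lay 92994 bp upstream and was a site in HCT-116 cells alone, at 178.69 in replicate 2 and 73.43 in replicate 3. The 4 others were peaks of a single library with scores between 50.31 and 86.48, which 51.5% to 98.9% of the peaks of their libraries exceeded, and lay 28685 bp downstream and 133722, 180000 and 251285 bp upstream. EGLN3 thus had 2 regions common to the 4 lines and further regions that were sites in 1 line or in none.

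**Figure D2:**
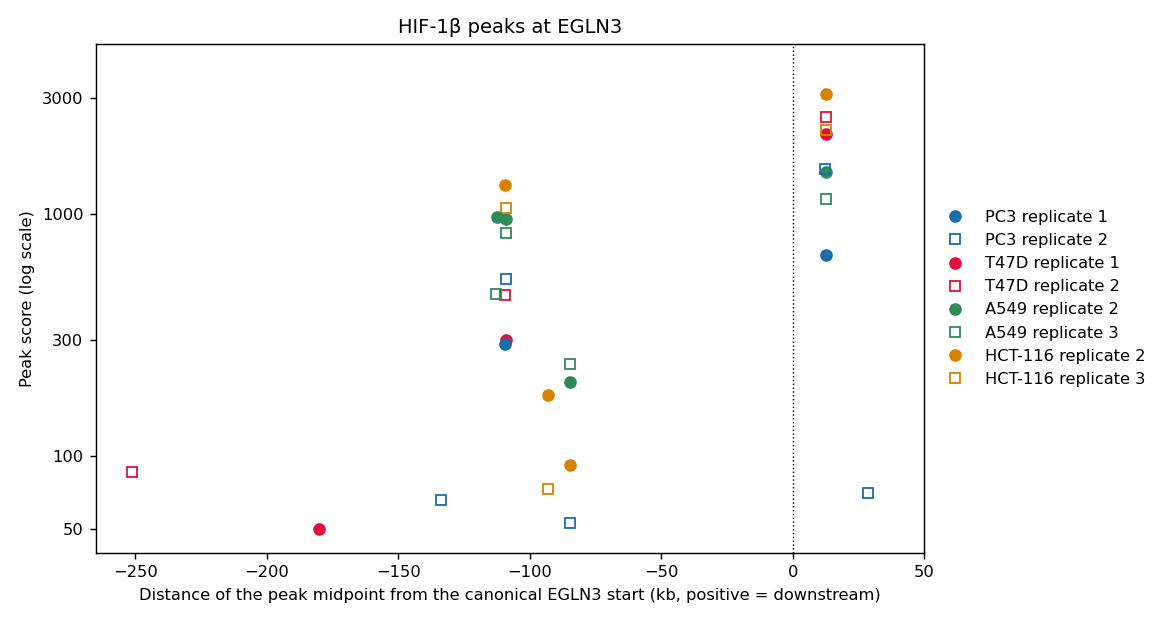
Score of each HIF-1β peak at EGLN3 (vertical axis, log scale) by the distance of its midpoint from the canonical start (horizontal axis, kb, positive downstream, dotted line at the start), coloured by cell line with filled circles and open squares for the replicates. The 8 libraries gather at 12.5 kb downstream and at 109.3 kb upstream, the A549 pair beside the latter is at 112.6 kb upstream, and no peak lies at the start.

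EGLN2 (also known as PHD1) encodes the remaining prolyl hydroxylase of the family, whose transcript is not known as a typical HIF target. Its window held a region, chr19:41283451-41284649, with a peak in T47D replicate 2 (score 51.85, 95.7% of peaks higher) and in HCT-116 replicate 2 (84.31, 58.1%). Neither was matched in the other replicate. The region lay 21030 bp upstream of the canonical EGLN2 start and 86 bp from the start of RAB4B, a neighbouring gene for a small GTPase. It also lay 110 bp from the start annotated for the RAB4B-EGLN2 readthrough. Peaks at least this high were found in the other replicate in 73.2% of cases in T47D cells and in 70.4% in HCT-116 cells. These shares include all stronger peaks, and the share near these scores alone was not computed. The rank test gave p = 1.0 for EGLN2 (exact permutation test, one-sided). Its 2 peaks lay in different lines and all other ranks were set to 100%, so no pairing could give a larger sum. The value was thus fixed in advance and says nothing about the lines.

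HIF1AN encodes the asparaginyl hydroxylase known as factor inhibiting HIF. Its region, chr10:102288756-102290427, had a midpoint 6061 bp upstream of the canonical HIF1AN start. It covered another annotated start of the gene at position 102288829, with the midpoint 810 bp downstream of that start. The midpoint was also 11 bp from the start of NDUFB8, which encodes a subunit of mitochondrial complex I on the opposite strand. It was 1 bp from the start of a protein-coding entry with no symbol. Peaks in 4 libraries had midpoints within 67 bp of each other. HCT-116 cells had the only site, at 224.44 in replicate 2 (18.7% of peaks higher) and 78.87 in replicate 3 (59.9%). PC3 replicate 2 had a peak of 69.41 (67.2%) and T47D replicate 1 a peak of 80.40 (52.5%), while A549 cells had none in either replicate. The HCT-116 replicates were 41.2 percentage points apart in rank, which 14.7% of the HCT-116 sites matched or exceeded, and the rank test did not separate the lines (exact permutation test, one-sided, p = 0.43).

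VHL encodes the subunit that recognises hydroxylated HIF-α for degradation. None of the 8 libraries had a peak within 25 kb of its gene body, chr3:10183462-10195351. The nearest peaks lay just beyond that limit, between 25529 and 25899 bp from the gene body, in 6 libraries, and between 29 and 186 bp from the start of BRK1, a gene for an actin regulator. They scored 112.21 in PC3 replicate 2, 76.16 and 108.12 in T47D replicates 1 and 2, 64.01 in A549 replicate 2, and 169.16 and 138.34 in HCT-116 replicates 2 and 3. A window of 50 kb would therefore have counted VHL as having a site in T47D and HCT-116 cells, at a start that belongs to another gene. The lists hold called peaks only, so weaker binding below the lowest score cannot be seen in them.

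SIAH2 encodes a RING ubiquitin ligase known to act on prolyl hydroxylases such as EGLN3. Its region, chr3:150480227-150482119, covered exon 1 and the canonical start at position 150480956 on the minus strand, with a midpoint 136 bp upstream of it. The stretch chr3:150480957-150481091, minus strand, is shown because 3 matches crowd within 35 bp of the start.
SIAH2 promoter: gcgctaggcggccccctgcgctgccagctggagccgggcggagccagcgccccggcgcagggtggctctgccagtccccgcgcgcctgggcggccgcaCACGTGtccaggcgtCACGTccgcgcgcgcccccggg

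These matches lie 35, 34 and 20 bp upstream of the canonical start, the first pair being the strands of 1 CACGTG. The region held 7 matches (3.7 per kb), and the nearest lay 101 bp from the median midpoint of the peaks. The SIAH2 peak scored 134.12 and 265.18 in PC3 replicates 1 and 2, with 31.5% and 12.9% of peaks higher. It scored 128.15 and 125.12 in T47D replicates 1 and 2 (27.4% and 33.0%), and 317.29 and 318.81 in HCT-116 replicates 2 and 3 (11.8% and 11.4%). HCT-116 lay above T47D in rank in both replicates, and PC3 spanned the range from near HCT-116 to T47D. In A549 cells only replicate 3 had a peak, at 145.28 (31.4%), although of the 400 peaks in that library that scored as high, 398 (99.5%) overlapped a peak of replicate 2. The rank test gave p = 0.24 (adjusted 0.56) for all 8 libraries (exact permutation test, one-sided). It gave p = 0.048 without A549 replicate 3 (exact permutation test), where the 1 A549 library left had no peak, was set to 100% and stood in no pair, so that only the other 3 lines gave the spread.

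CITED2 encodes a protein without a DNA-binding domain that displaces HIF-α from the coactivators p300 and CBP. Its region, chr6:139695033-139698589, covered both exons in part and the canonical start at position 139695785 on the minus strand. The median midpoint lay 665 bp upstream of the start, and the midpoints of the libraries spanned 598.5 bp, more than those of any other of the 14 regions. The T47D peaks were the widest, at 3363 and 3266 bp, while those of the other lines ran from 1612 to 2185 bp. The stretch chr6:139696817-139697017, minus strand, is shown because it holds 4 of the 5 matches that lie in the interval common to all 7 peaks.
CITED2 upstream region: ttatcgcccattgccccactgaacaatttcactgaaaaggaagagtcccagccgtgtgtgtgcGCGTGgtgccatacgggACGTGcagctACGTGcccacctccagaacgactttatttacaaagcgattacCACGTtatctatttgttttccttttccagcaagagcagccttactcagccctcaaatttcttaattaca

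These 4 matches lie between 1167 and 1098 bp upstream of the canonical start. The whole region held 12 matches (3.37 per kb). The CITED2 peak scored 810.44 and 1228.90 in T47D replicates 1 and 2, with 2.19% and 1.68% of peaks higher. It scored 517.68 and 376.84 in A549 replicates 2 and 3 (7.13% and 9.13%), and 405.36 and 241.57 in HCT-116 replicates 2 and 3 (8.81% and 16.6%). T47D cells ranked it above every library of the other lines, whereas A549 and HCT-116 cells overlapped. In PC3 cells replicate 2 had a peak of 237.61 (14.6%) and replicate 1 had none, although of the 422 peaks in replicate 2 that scored as high, 409 (96.9%) overlapped a peak of replicate 1. The rank test missed the threshold over all 8 libraries (exact permutation test, one-sided, p = 0.086, adjusted 0.36). It passed unadjusted when the rank was taken as the number of higher-scoring peaks (p = 0.0095, the smallest the test can give) by the same exact permutation test. PC3 replicate 1 had no peak, so its value in that run was assigned and not measured. Without PC3 replicate 2 it gave p = 0.029 (exact permutation test), where the 1 PC3 library left had no peak, was set to 100% and stood in no pair, so that only the other 3 lines gave the spread. The nearest peak in PC3 replicate 1 lay 555827 bp from the CITED2 start.

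**Figure D3:**
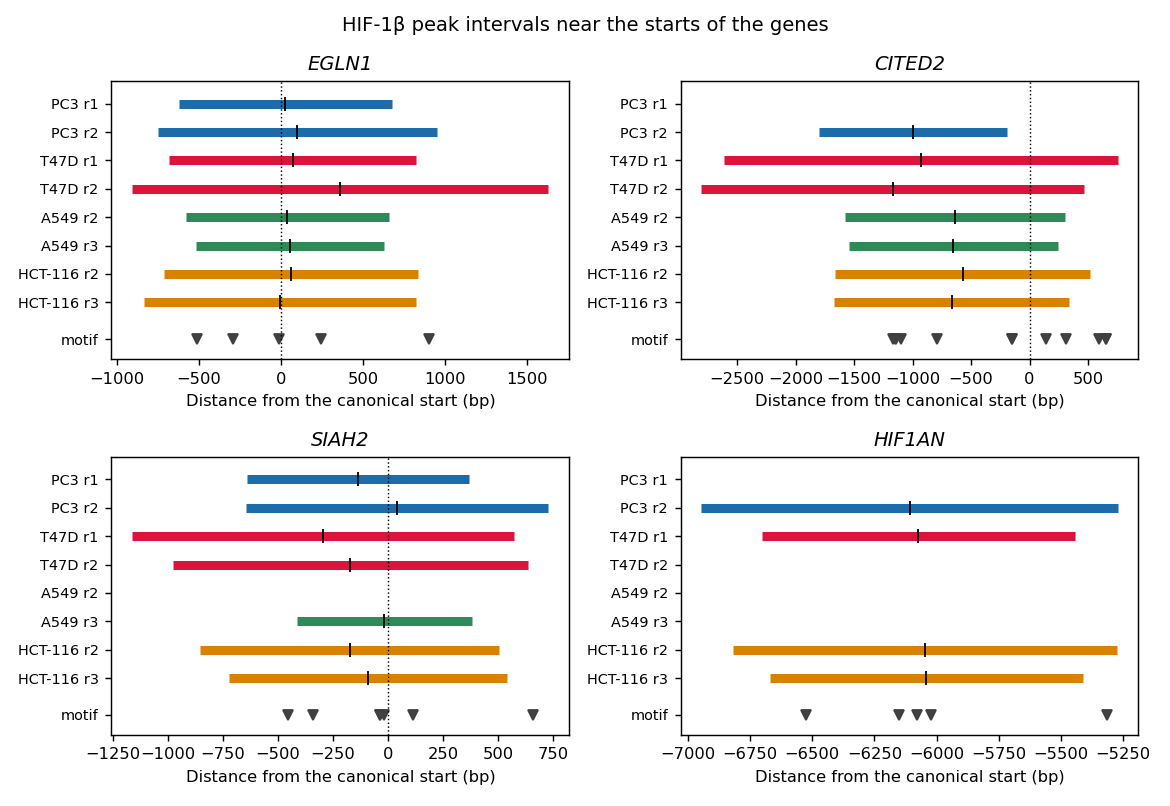
Extent of the HIF-1β peaks (bars, 1 row per library, coloured by cell line, with the midpoint as a black tick) at EGLN1, CITED2, SIAH2 and HIF1AN by distance from the canonical start (horizontal axis, bp, negative upstream), with triangles for motif matches. The peaks of EGLN1 and SIAH2 span the start (dotted line), those of T47D cells are the widest at CITED2 (3363 and 3266 bp), and the HIF1AN peaks lie 6061 bp upstream.

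Replicate agreement was read against all regions with a peak of either replicate. Of the 9 regions of these genes with a PC3 peak, 4 had peaks of both replicates (32.7% of all PC3 regions), and of the 9 with a T47D peak, 5 did (53.1%). For A549 cells this held at 6 of 7 regions (52.2% of all), and for HCT-116 cells at 7 of 9 (44.6%). In PC3 cells the 5 unmatched regions were all peaks of replicate 2, whose list was the longer with 2891 peaks against 1042. The 2 regions of EGLN3 shared by the 4 lines had replicate ranks that differed by at most 6.2 percentage points in every line. EGLN1 in A549 cells and the HIF1AN and EGLN3 sites found only in HCT-116 cells differed most, by between 41.2 and 51.4 percentage points.

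**Figure D4:**
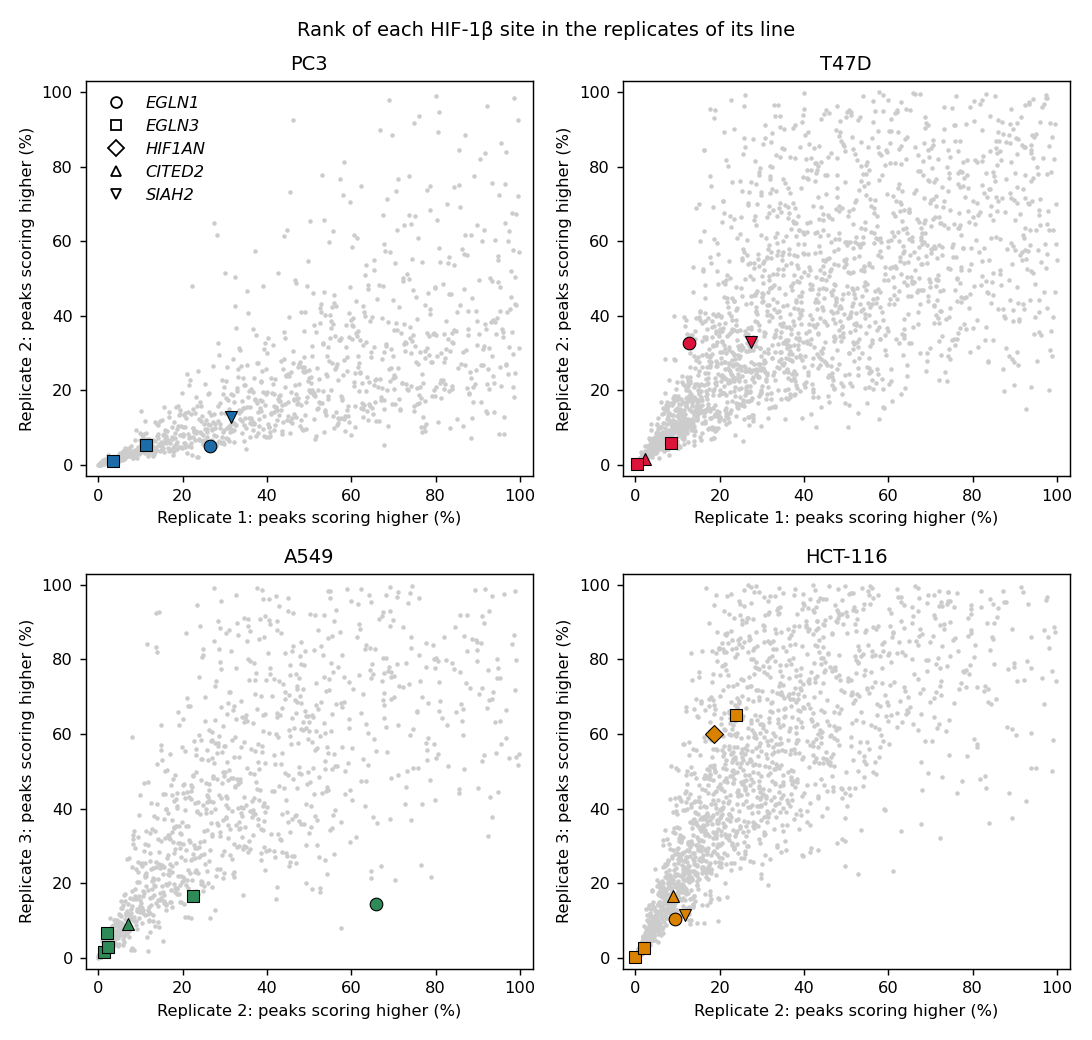
Rank of every HIF-1β site (grey points) in the replicates of its line, as the percentage of peaks that scored higher, with sites of the oxygen-sensing genes as larger symbols, 1 shape per gene. The EGLN3 intron site lies near 0% in both replicates of each line, at most 3.45%, and EGLN1 in A549 cells lies at 65.8% in replicate 2 and 14.3% in replicate 3.

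Other genes of the pathway were counted in the same way from a list of 24 HIF subunits, VHL complex members, coactivators and regulators of HIF stability. The count with a site was 2 of 24 for PC3 (7.07% of all protein-coding genes), 8 for T47D (16.0%), 3 for A549 (6.01%) and 8 for HCT-116 (14.2%). HIF1A, which encodes the HIF-1α subunit, and WSB1, which encodes a ubiquitin ligase component, had a site in all 4 lines. The top HIF1A peak ranked between 0% and 0.709% in the 8 libraries and lay outside 2 kb of its start, like that of EGLN3, while WSB1 ranked between 3.53% and 26.9% and had a site within 2 kb of its start in each line, like EGLN1. No site in any line was found at 12 of the 24, against 75.6% of all protein-coding genes, namely HIF3A, ARNT, ARNT2, P4HTM, ELOC, SIAH3, CITED1, CITED4, EP300, CREBBP, USP20 and ADO. ARNT encodes HIF-1β itself, and CITED1 and CITED4 are relatives of CITED2, as SIAH3 is of SIAH2.

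The genes whose top peak ranked most like that of EGLN3 over the 8 libraries, with a mean absolute difference of 0.333 percentage points, were LDHA and LDHC, neighbours that share their peaks and encode lactate dehydrogenase subunits. FAM174B followed at 0.594, among 8763 genes compared. The genes most like EGLN1 were BNIP3, which encodes a mitochondrial autophagy receptor, and its neighbour PPP2R2D, both at 7.63 through shared peaks, and then FBXO42 at 7.79. In A549 replicate 2 BNIP3 ranked at 52.7% and FBXO42 at 70.4%, against 18.6% and 20.9% in replicate 3, the same order as EGLN1. These genes were picked for likeness over the same libraries, so this order follows from the choice and is no separate result.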

How the data were processed

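HIF-1β ChIP-seq had been done in 4 cell lines with 2 replicates each. Per the submitters' processing notes, the tools were Trim Galore 0.3.3, BWA 0.7.5a-r405, SAMtools 0.1.19, Picard 1.106, bedtools 2.17.0 and MACS, on GRCh37. The authors deposited 1 peak list per library, with a score for each peak whose scale is not stated. The paper also names T-PIC as a second peak caller, a step not visible in the lists. The lists hold no reads, so depth is unknown and no background can be subtracted.

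Peaks were assigned to the annotated gene body extended by 25 kb (GENCODE 44 lifted to GRCh37). Starts are those of Ensembl canonical transcripts, and distances run from peak midpoints, or from the middle base of a motif match. Peaks of both replicates overlapping by at least 1 bp were merged into a site. The rank was set to 100% where a gene had no peak. The pairing test summed absolute rank differences within pairs over all 105 pairings, one-sided, and was adjusted by Benjamini-Hochberg over 8764 genes. It was tried on simulated ranks drawn without ties, whereas ranks here are tied at 100% where peaks are absent. The simulation did not cover that case. Motifs were counted on both strands. Python 3.11.15, NumPy 2.4.6, Matplotlib 3.10.9 and bedtools 2.31.1 were used.

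The genes, lists and tests were chosen with earlier results of these data known. Genes outside the 7 are named where they had a site in all or none of the lines, had a nearer start to a shared region, or were among the 3 most like EGLN1 or EGLN3 in rank. EGLN3-AS1, BRK1 and, at its start, the RAB4B-EGLN2 readthrough were named after their positions were seen. The alternatives were other windows (10 and 50 kb), overlap of 50% of both peaks, a peak of either replicate, the higher-scoring 50% of each list, the rank as a number of peaks, the central 200 bp for motifs and each library left out.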

Additional observations from a re-analysis of the deposited data

How the results depend on the processing

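The number of genes with a site in PC3 cells was 3 and rose to 5 with a peak of either replicate, while leaving out a PC3 replicate gave 3 to 5. A peak of either replicate also raised the count from 4 to 6 in T47D cells, adding EGLN2 and HIF1AN. The count rose from 3 to 4 in A549 cells (SIAH2 added) and from 5 to 6 in HCT-116 cells (EGLN2 added). The share of all protein-coding genes with a peak of either replicate was not computed. These rises therefore cannot be read as particular to the genes described here. The number of genes whose rank separated the lines at an unadjusted p of 0.05 (exact permutation test) was 1, became 2 with the rank as a number of peaks, and ran from 0 to 2 with each library left out. It was 0 without T47D replicate 1, T47D replicate 2, A549 replicate 2, HCT-116 replicate 2 or HCT-116 replicate 3, and 2 without PC3 replicate 2. Without A549 replicate 3 the gene that separated the lines was SIAH2 in place of EGLN3, so an unchanged count did not mean the same gene. The cause of these shifts was not tested. Of 48 alternatives for the 5 counts, 39 stayed within 1.5 times the count and 9 did not. The higher-scoring 50% of each list lost EGLN1 in A549 cells and HIF1AN in HCT-116 cells. The canonical transcript in place of the gene body, an alternative chosen after seeing the data, left the count of each line within those limits. Counted in the central 200 bp of the region with the highest peak, motif matches numbered 0 to 3 in place of 3 to 12 for the 6 genes with a peak. The centre here was the middle of the merged region, not the median midpoint of the peaks. EGLN1 had 0 matches by this count, although its nearest match lay 70 bp from the median midpoint. No paired analysis was possible because the replicate numbers are 1 and 2 in PC3 and T47D cells and 2 and 3 in A549 and HCT-116 cells, and name experiments in different lines. Without reads, a peak missing from a list cannot be told apart from a peak below the caller's limit.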
